A study of Mus musculus with 10 samples.

Results

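The ion channel genes examined here are known in resting and activated microglia, the resident immune cells of the brain. They were chosen by name, 9 of the 18292 gene symbols in the count tables: *Kcnk13*, *Kcnk6*, *Kcnj2*, *Kcna3* and *Kcnn4* for potassium channels, *Hvcn1* for a proton channel, *Trpv2* for a cation channel, and *Clic1* and *Clic4* for the chloride intracellular channel family. All cells came from C57BL/6 mice, were sorted by flow cytometry as live CD11b high, CD45 intermediate cells and were profiled with a 10x Genomics 3' kit, which counts RNA molecules by unique molecular identifiers (UMIs). Adult microglia were taken from adult brain without culture. Slice microglia were recovered from organotypic brain slices cut from neonatal pups and kept for 1 day, 1 week or 3 weeks, with slices pooled where needed. *In vitro* microglia were the floating cells of mixed glial cultures from neonatal cortex, kept for 3 weeks. The labels name no treatment or engineered allele. The cultures differ from adult in donor age as well as in culture, and these cannot be told apart. Each group had 2 libraries, given as biological replicates in the series design.

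Potassium channels set the negative resting potential of microglia and let potassium leave the cell, a step tied to inflammasome activation in macrophages. Their current also keeps up the driving force for calcium entry, while the proton channel carries out the charge and acid that the NADPH oxidase produces during a respiratory burst. Cultured and activated microglia are known to carry potassium currents that differ from those of surveying cells in the healthy brain, where a background leak prevails.

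The promoters of 4 of these genes are shown because their transcripts moved in different directions: *Clic4* and *Kcnn4* were called higher *in vitro* than in adult, *Kcnk13* lower, and *Kcnj2* lower *in vitro* but higher in slice 3 weeks. Each run covers 250 bases before to 50 bases after a RefSeq transcript start (GRCm38.p6, the build also called mm10), 5′ to 3′ on the strand of the gene. RefSeq promoters were matched for 7 of the 9 genes. Capitals mark an E-box, CACGTG.
Clic4, chr4:135272711-135273010 (minus strand): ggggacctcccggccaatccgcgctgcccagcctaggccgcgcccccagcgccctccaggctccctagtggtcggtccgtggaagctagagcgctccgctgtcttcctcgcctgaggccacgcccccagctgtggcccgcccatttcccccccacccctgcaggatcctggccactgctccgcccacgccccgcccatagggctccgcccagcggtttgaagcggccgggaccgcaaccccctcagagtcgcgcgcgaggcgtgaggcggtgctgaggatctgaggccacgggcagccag
Kcnn4, chr7:24370013-24370312 (plus strand): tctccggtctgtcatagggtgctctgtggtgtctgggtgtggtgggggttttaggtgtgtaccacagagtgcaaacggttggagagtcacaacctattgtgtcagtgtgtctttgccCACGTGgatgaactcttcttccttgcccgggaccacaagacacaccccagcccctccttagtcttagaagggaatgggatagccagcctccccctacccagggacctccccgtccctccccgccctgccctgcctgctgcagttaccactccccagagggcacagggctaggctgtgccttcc
Kcnk13, chr12:99964249-99964548 (plus strand): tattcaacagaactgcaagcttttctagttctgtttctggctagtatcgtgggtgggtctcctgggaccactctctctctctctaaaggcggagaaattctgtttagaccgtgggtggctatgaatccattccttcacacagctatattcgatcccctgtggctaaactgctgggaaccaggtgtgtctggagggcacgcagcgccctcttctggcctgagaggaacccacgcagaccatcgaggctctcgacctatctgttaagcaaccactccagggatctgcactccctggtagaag
Kcnj2, chr11:111065914-111066213 (plus strand): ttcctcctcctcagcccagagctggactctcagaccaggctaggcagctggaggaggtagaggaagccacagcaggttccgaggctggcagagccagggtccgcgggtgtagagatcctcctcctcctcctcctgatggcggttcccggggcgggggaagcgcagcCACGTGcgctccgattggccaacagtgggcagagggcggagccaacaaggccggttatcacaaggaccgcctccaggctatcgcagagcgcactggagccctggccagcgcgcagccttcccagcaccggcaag
The *Clic4* window held 73.3% G and C with 28 CpG dinucleotides and that of *Kcnj2* 66.7% G and C with 18 CpG dinucleotides. *Kcnn4* had 59.7% G and C with 6 CpG dinucleotides, and *Kcnk13* 52.7% G and C with 9 CpG dinucleotides, which equals the median of all 32851 promoters in G and C. Both strands were searched for CACGTG (E-box), TGACTCA or TGAGTCA (AP-1), GAGGAAGT (PU.1) and TGACNNNGC (antioxidant response element, which can overlap AP-1). *Kcnn4* and *Kcnj2* held 1 E-box each, at bases -133 and -84 from the start, and neither *Clic4* nor *Kcnk13* held any of these motifs. Of all promoters, 7.15% held the E-box, 5.20% AP-1, 3.20% PU.1 and 12.39% the antioxidant response element, so that a match is a description of the letters only.

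After filters on cells, 19059 of 19637 barcodes were kept, between 61 and 3799 a library, and the kept cells held 385373 to 39689540 UMIs. At most 21 barcodes were shared by a pair of libraries. All 8 listed microglia markers were detected in every library, at a summed level of 39233 to 40250.1 CPM (UMI counts scaled to a common library total) in adult, 15014 to 18099 in slice 3 weeks, 9649.7 to 10799.9 in slice 1 week, 5481 to 5989.9 in slice 1 day and 3858 to 4788 *in vitro*. The 9 neutrophil genes summed to 7660.1 to 22423 CPM in slice 1 day and 955 to 40259 in slice 1 week, against at most 8.39 elsewhere. The 5 monocyte genes moved with them, at 154 to 363 CPM in slice 1 day and 0 to 850.3 in slice 1 week, against at most 7.10 elsewhere. The 5 border macrophage genes summed to 2104 to 2233 CPM *in vitro*, 241 to 288 in slice 1 day, 166 to 182 in slice 1 week, 28.8 to 74.6 in slice 3 weeks and 5.59 to 10.3 in adult. Fits were also made without neutrophil-rich cells, and without cells of other types (those with UMIs of at least 2 genes of the neutrophil, monocyte, T and NK cell or B cell list). They stand beside the calls they ended in the 4 comparisons with adult, slice 3 weeks against slice 1 day and *in vitro* against slice 3 weeks. The rule for other types took 1014 of 1014 cells of slice 1 day replicate 2 and 148 of 148 of slice 1 week replicate 1, of which 110 and 24 were neutrophil-rich. It also took 382 of 518 cells of slice 1 day replicate 1, so slice 1 day then rests on part of 1 library. A call lost under this rule therefore does not show dependence on other cell types. For the other 4 comparisons, which all involve slice 1 day or slice 1 week, results under the alternatives are not given. The part of border macrophage RNA was not tested. Adult replicate 1 and slice 3 weeks replicate 1 carry another study label than the other 8 libraries. In counts summed over a library, fewer cells with a transcript and less of it per cell cannot be told apart. CPM are shares of a library's UMIs, so a lower level is a smaller share and need not be fewer UMIs per cell. A typical cell (median) held 12858 and 13966 UMIs in the *in vitro* libraries and 3257 and 1858 in adult. Both *in vitro* libraries had more *Kcnk13* UMIs per cell than adult (0.735 and 0.638 against 0.442 and 0.311), and more of *Kcnj2*. For *Kcnk6* and *Hvcn1*, the others called lower, the libraries overlapped.

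Of the 9 genes, 8 passed the filter on low counts and were tested with the quasi-likelihood test of edgeR. A gene was called at a false discovery rate (FDR) under 0.05 over all 12157 tested genes and a fold change over 1.5. Against adult, the same pair of adult libraries served all comparisons. *In vitro* microglia had 6 called channels: 2 were higher (22.4% of all tested genes) and 4 lower (28.5%), against 50.8% called in either direction. In slice 1 day, 2 were higher (24.9% of all tested genes) and 3 lower (25.3%), against 50.2% called in either direction. In slice 1 week, 1 was higher (15.0% of all tested genes) and 2 lower (13.6%), against 28.6% called in either direction. In slice 3 weeks, 3 were higher (17.9% of all tested genes) and 2 lower (17.5%), against 35.4% called in either direction. Relative to slice 1 day, slice 3 weeks gave 4 calls: 3 were higher (13.9% of all tested genes) and 1 lower (12.8%), against 26.7% called in either direction. *In vitro* against slice 3 weeks, 2 were higher (13.3% of all tested genes) and 4 lower (19.9%), against 33.2% called in either direction. The other pairs of cultures were compared only to order the levels. From slice 1 day to slice 1 week, 1 was higher (4.91% of all tested genes) and 1 lower (5.25%), against 10.2% called in either direction. From slice 1 week to slice 3 weeks, 1 was higher (2.22% of all tested genes) and 0 lower (3.49%), against 5.71% called in either direction. *In vitro* against slice 1 day, 1 was higher (13.3% of all tested genes) and 1 lower (18.6%), against 31.9% called in either direction, and against slice 1 week, 1 was higher (6.20% of all tested genes) and 2 lower (10.0%), against 16.2% called in either direction. With library size alone as the scaling, the channels called higher and lower than adult were 2 and 5 *in vitro*, 2 and 4 in slice 1 day, 1 and 4 in slice 1 week, and 2 and 3 in slice 3 weeks. Of all tested genes, 16.59% and 38.8%, 22.4% and 29.51%, 12.45% and 20.67% and 14.03% and 25.15% were then called higher and lower in these groups. With so few channels, these counts are a description, and the directions differed from channel to channel.

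**Figure D1:**
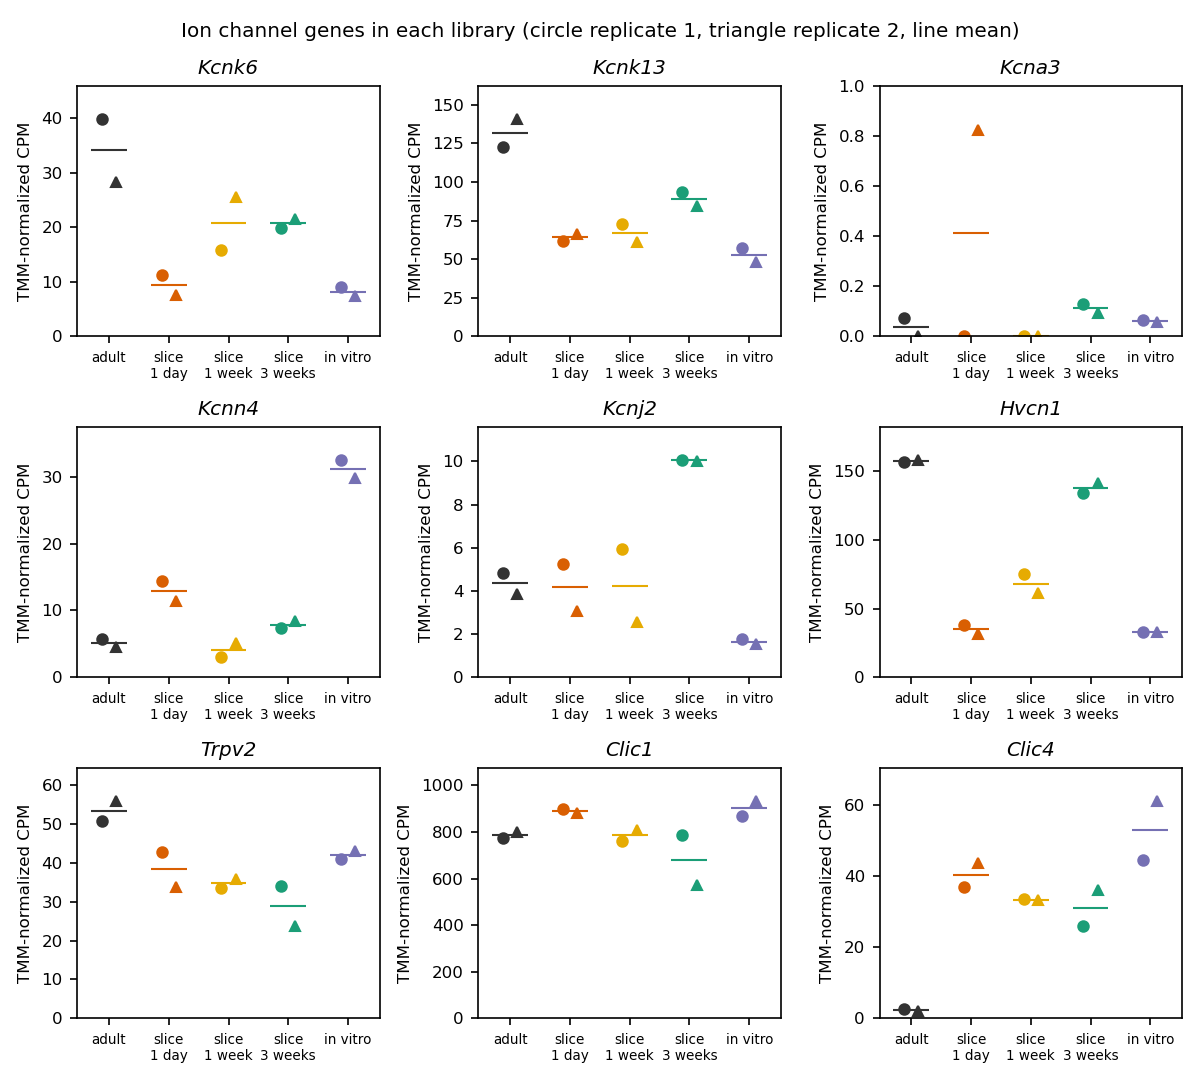
Level of each ion channel gene in each library, in CPM after scaling by trimmed mean of M values (TMM), by group (circle, replicate 1; triangle, replicate 2; line, mean of 2 libraries). *Clic4* lay at 2.63 and 1.93 CPM in adult and at 26.1 CPM or more in every cultured library, and *Hvcn1* rose at each step from slice 1 day to slice 3 weeks.

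*Kcnk13* (chr12:99964499-100062682, plus strand) encodes THIK-1, a background leak channel with tandem pore domains that sets the resting potential of microglia and takes part in their ramification and surveillance. It was measured at 123 and 141 CPM in adult, 62.1 and 66.5 in slice 1 day, 73.1 and 61.4 in slice 1 week, 93.2 and 84.2 in slice 3 weeks and 57.0 and 47.9 *in vitro*. Both adult libraries were above every cultured library, and slice 3 weeks lay between adult and the other cultures without overlap. The mean was 52.5 ± 6.42 CPM *in vitro* and 132 ± 12.9 in adult (SD, n = 2), a log2 fold change of -1.33 ± 0.15 (SE; FDR = 3.30e-05). *Kcnk13* was also lower than adult in slice 1 day (-1.03 ± 0.15, FDR = 0.000246) and slice 1 week (-0.94 ± 0.17, FDR = 0.00245). In slice 3 weeks the log2 difference was -0.57 ± 0.15, FDR = 0.0107, which stayed inside the fold limit and was not called. It passed that limit, for instance, with library size alone (-0.78, FDR = 0.00252), without adult replicate 1 (-0.61, FDR = 0.0302) and without slice 3 weeks replicate 1 (-0.61, FDR = 0.0165). *Kcnk13* was lower *in vitro* than in slice 3 weeks (-0.76 ± 0.15, FDR = 0.00274), a call lost without *in vitro* replicate 2 (-0.56, FDR = 0.0756). The 3 slice groups were not called different from each other. Slice 3 weeks against slice 1 day missed only the fold limit (0.46 ± 0.15, FDR = 0.0399). Slice 1 week, slice 1 day and *in vitro*, the lowest groups, were not called different either.

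*Kcnk6* (chr7:29221926-29232515, minus strand) encodes TWIK-2, another channel of the tandem pore family, through which potassium leaves macrophages ahead of inflammasome activation. Its level was 39.9 and 28.3 CPM in adult, 11.3 and 7.51 in slice 1 day, 15.8 and 25.6 in slice 1 week, 19.9 and 21.5 in slice 3 weeks and 9.05 and 7.37 *in vitro*. The adult libraries were again the highest, slice 1 week overlapped slice 3 weeks, and slice 1 day overlapped *in vitro* at the low end. *Kcnk6* was lower than adult *in vitro* (-2.06 ± 0.24, FDR = 4.17e-05) and in slice 1 day (-1.92 ± 0.26, FDR = 0.000163). Slice 1 week, with 16 and 10 UMIs, was not called (-0.85 ± 0.34, FDR = 0.0848), but was with library size alone (-1.07, FDR = 0.0352) and with no filter on low counts (-0.91, FDR = 0.0228). Slice 3 weeks was above slice 1 day (1.20 ± 0.26, FDR = 0.00738), and *in vitro* was below slice 3 weeks (-1.34 ± 0.24, FDR = 0.00161) and slice 1 week (-1.21 ± 0.37, FDR = 0.0471). The difference between slice 3 weeks and slice 1 day was lost without cells of other types, which drops slice 1 day replicate 2 and slice 1 week replicate 1 (1.42, FDR = 0.185) and without slice 1 day replicate 2 (0.89, FDR = 0.107). The fall in slice 3 weeks was the smallest of the 3 called against adult (-0.72 ± 0.23, FDR = 0.0304), a call lost without adult replicate 1 (-0.39, FDR = 0.335), without slice 3 weeks replicate 1 (-0.64, FDR = 0.0766), without slice 3 weeks replicate 2 (-0.73, FDR = 0.0728), without *in vitro* replicate 1 (-0.68, FDR = 0.0628), without *in vitro* replicate 2 (-0.68, FDR = 0.0617) and within the study label of 8 libraries (-0.40, FDR = 0.281).

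*Kcnj2* (chr11:111066164-111076821, plus strand) encodes Kir2.1, the inward rectifier that holds the membrane near the potassium equilibrium and is a classical current of cultured microglia. It lay at 4.83 and 3.86 CPM in adult, 5.24 and 3.09 in slice 1 day, 5.93 and 2.56 in slice 1 week, 10.1 and 10.0 in slice 3 weeks and 1.76 and 1.54 *in vitro*. Both slice 3 weeks libraries were above all others and both *in vitro* libraries below all others, while adult, slice 1 day and slice 1 week overlapped. Among the tested channels this was the only one called in opposite directions against adult: higher in slice 3 weeks (log2 fold change 1.19 ± 0.30, FDR = 0.00917) and lower *in vitro* (-1.41 ± 0.31, FDR = 0.00285). Directly compared, *in vitro* was lower than slice 3 weeks (-2.60 ± 0.30, FDR = 0.000110) and than slice 1 day (-1.24 ± 0.34, FDR = 0.0153), and slice 3 weeks was above slice 1 day (1.35 ± 0.32, FDR = 0.0107). The difference between *in vitro* and slice 3 weeks was called under all 21 alternative settings, from -2.70 to -2.42. The rise in slice 3 weeks over adult was lost without adult replicate 2 (1.05, FDR = 0.0649), and the fall *in vitro* without adult replicate 1 (-1.12, FDR = 0.0503) and without *in vitro* replicate 2 (-1.19, FDR = 0.0543). The rise over slice 1 day was lost without cells of other types, which drops slice 1 day replicate 2 and slice 1 week replicate 1 (0.38, FDR = 0.762) and without slice 1 day replicate 2 (0.94, FDR = 0.145). The counts were small, at 6 and 1 UMIs in slice 1 week and 20 and 30 in slice 1 day.

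*Kcna3* (chr3:107036169-107038070, plus strand) encodes Kv1.3, a delayed rectifier of activated microglia and T cells. With 16 UMIs over all 10 libraries it failed the filter and was not tested. There were 1 and 0 UMIs in the adult libraries, 0 and 8 in slice 1 day, 0 and 0 in slice 1 week, 1 and 2 in slice 3 weeks and 2 and 2 *in vitro*. Only slice 1 day replicate 2 was above the floor of 3 counts, which stood between 0.0841 and 7.67 CPM per library. That library was at 0.824 CPM and slice 1 day replicate 1 at 0, so that the value rests on 1 library. Floors and intervals cover counting error only. The gene lies wholly within *Gm27008*, a transcript on the opposite strand, and whether counting used the strand is not given in the sources used here.

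*Kcnn4* (chr7:24370263-24386690, plus strand) encodes KCa3.1, a potassium channel opened by intracellular calcium that is linked to the activation and proliferation of immune cells. It was measured at 5.71 and 4.50 CPM in adult, 14.4 and 11.4 in slice 1 day, 2.96 and 5.11 in slice 1 week, 7.37 and 8.42 in slice 3 weeks and 32.5 and 29.9 *in vitro*. The *in vitro* libraries were the highest and slice 1 day came next, while adult and slice 1 week overlapped, the latter with 3 and 2 UMIs. *Kcnn4* rose 6.02-fold *in vitro* over adult (log2 fold change 2.59 ± 0.21, FDR = 3.70e-06) and 2.45-fold in slice 1 day (1.29 ± 0.22, FDR = 0.000696), the latter call being lost without cells of other types, which drops slice 1 day replicate 2 and slice 1 week replicate 1 (1.02, FDR = 0.212). It was higher *in vitro* than in slice 3 weeks (1.97 ± 0.20, FDR = 4.62e-05) and was also called higher than in slice 1 day (FDR = 0.000787) and slice 1 week (3.12 ± 0.39, FDR = 0.000562). The fall from slice 1 day to slice 1 week (-1.82 ± 0.44, FDR = 0.0279) rests on those few UMIs. Slice 3 weeks stood above adult (0.62 ± 0.22, FDR = 0.0423) and below slice 1 day (-0.67 ± 0.21, FDR = 0.0354), both near the thresholds.

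The *Kcnn4* call in slice 3 weeks against adult was lost in 8 of 21 settings: with library size alone (0.42, FDR = 0.144), with DESeq2 (0.66, FDR = 0.0570), without adult replicate 1 (0.88, FDR = 0.0530), without adult replicate 2 (0.48, FDR = 0.212), without slice 1 day replicate 1 (0.62, FDR = 0.0530), without slice 3 weeks replicate 2 (0.56, FDR = 0.124), without *in vitro* replicate 1 (0.67, FDR = 0.0756) and without *in vitro* replicate 2 (0.67, FDR = 0.0725). That against slice 1 day was lost in 10 of 21: with no filter on low counts (-0.63, FDR = 0.0611), without cells of other types, which drops slice 1 day replicate 2 and slice 1 week replicate 1 (-0.37, FDR = 0.770), without proliferating cells (-0.53, FDR = 0.139), without slice 1 day replicate 1 (-0.53, FDR = 0.180), without slice 1 day replicate 2 (-0.85, FDR = 0.0725), without slice 3 weeks replicate 1 (-0.59, FDR = 0.0601), without slice 3 weeks replicate 2 (-0.76, FDR = 0.0567), without *in vitro* replicate 1 (-0.68, FDR = 0.0805), without *in vitro* replicate 2 (-0.68, FDR = 0.0773) and within the study label of 8 libraries (-0.58, FDR = 0.0522).

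**Figure D2:**
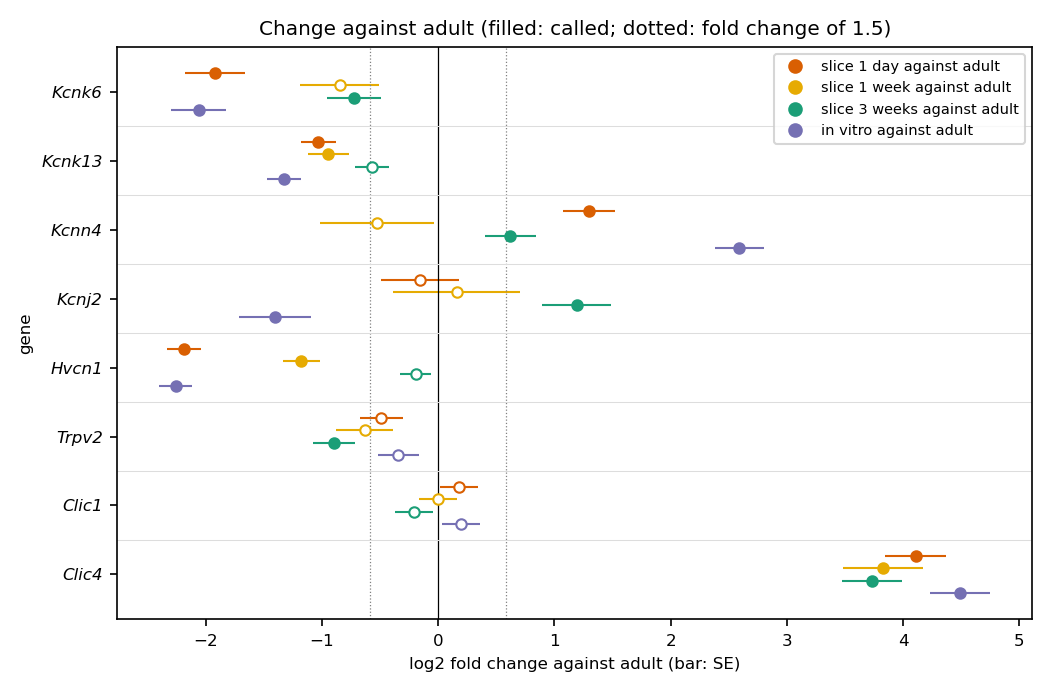
Log2 fold change of the 8 tested ion channel genes against adult in slice 1 day, slice 1 week, slice 3 weeks and *in vitro* microglia, with SE bars. Filled points were called and dotted lines mark a fold change of 1.5. *Clic4* lay between 3.73 and 4.49 in all 4 cultures, whereas *Kcnj2* was at 1.19 in slice 3 weeks and -1.41 *in vitro*.

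*Hvcn1* (chr5:122206804-122242297, plus strand) encodes Hv1, the voltage-gated proton channel that keeps the NADPH oxidase working by letting protons out of the cell. It lay at 157 and 159 CPM in adult, 38.0 and 31.8 in slice 1 day, 75.1 and 61.4 in slice 1 week, 134 and 142 in slice 3 weeks and 32.8 and 33.1 *in vitro*. The slice libraries were ordered by time in culture without overlap, and *in vitro* fell within the range of slice 1 day. Compared with adult, *Hvcn1* was 4.55-fold lower in slice 1 day (log2 fold change -2.19 ± 0.15, FDR = 2.24e-06) and 2.26-fold lower in slice 1 week (-1.18 ± 0.16, FDR = 0.000448). In slice 3 weeks it was not called (-0.20 ± 0.14, FDR = 0.283), although its libraries did not overlap adult. Each step was called, from slice 1 day to slice 1 week (1.01 ± 0.17, FDR = 0.00589) and from slice 1 week to slice 3 weeks (0.98 ± 0.16, FDR = 0.00760). Both steps rest on 76 and 24 UMIs in slice 1 week, and their results under the alternatives are not given. Neutrophil-rich cells made up 13.1% and 10.8% of slice 1 day, 16.2% and 1.64% of slice 1 week and 0% of slice 3 weeks. Their part in these steps was not tested. *In vitro* it was 4.79-fold below adult (-2.26 ± 0.14, FDR = 6.59e-07) and 4.19-fold below slice 3 weeks (-2.07 ± 0.14, FDR = 3.89e-06), cultures of the same length, and was also lower than slice 1 week (-1.08 ± 0.16, FDR = 0.00156). Its calls against adult, in slice 3 weeks against slice 1 day and *in vitro* against slice 3 weeks were kept under all 21 settings. *Hvcn1* shares 4450 bases with *Tctn1* on the opposite strand, itself at 2.88 to 20.5 CPM per library.

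*Trpv2* (chr11:62574486-62600515, plus strand) encodes a calcium-permeable cation channel of macrophages that takes part in phagocytosis. Its level was 50.7 and 56.0 CPM in adult, 42.7 and 33.9 in slice 1 day, 33.6 and 35.8 in slice 1 week, 34.1 and 23.7 in slice 3 weeks and 40.9 and 43.1 *in vitro*. Both adult libraries were above all cultured ones, and *in vitro* was above slice 1 week and slice 3 weeks but overlapped slice 1 day. Of the 4 cultures, slice 3 weeks was called lower than adult (-0.90 ± 0.18, FDR = 0.00323), a call lost without slice 3 weeks replicate 2 (-0.58, FDR = 0.0222), where the fold limit was missed. The log2 difference was -0.34 ± 0.18, FDR = 0.124 *in vitro*, -0.49 ± 0.18, FDR = 0.0437 in slice 1 day, under the fold limit, and -0.63 ± 0.24, FDR = 0.0745 in slice 1 week. With library size alone all 3 were called lower too (-0.65, FDR = 0.0129 *in vitro*, -0.61, FDR = 0.0225 in slice 1 day, -0.86, FDR = 0.0276 in slice 1 week). Slice 1 day was also called without slice 1 day replicate 1 (-0.65, FDR = 0.0431). Slice 1 week was also called with no filter on low counts (-0.69, FDR = 0.0266), without slice 3 weeks replicate 1 (-0.65, FDR = 0.0279) or replicate 2 (-0.65, FDR = 0.0289) and within the study label of 8 libraries (-0.71, FDR = 0.0365). The difference between *in vitro* and slice 3 weeks was not called (0.55 ± 0.18, FDR = 0.0332) but was in 10 of 21 settings, among them without slice 3 weeks replicate 1 (0.91, FDR = 0.00144).

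*Clic1* (chr17:35049966-35058749, plus strand) and *Clic4* (chr4:135213969-135272814, minus strand) belong to a family of small proteins that occur both free in the cytosol and in membranes, where they can conduct chloride. *Clic1* was at 773 and 798 CPM in adult, 898 and 882 in slice 1 day, 760.5 and 810.4 in slice 1 week, 788 and 574 in slice 3 weeks and 870.4 and 934 *in vitro*. The groups lay close together, and slice 3 weeks replicate 2 was below all other libraries. *Clic1* was called in none of the 10 comparisons by edgeR, and its log2 difference from adult ran from -0.21 ± 0.16, FDR = 0.346 in slice 3 weeks to 0.20 ± 0.16, FDR = 0.321 *in vitro*. Without slice 3 weeks replicate 1, which leaves the low library alone in its group, *Clic1* was called lower in slice 3 weeks than in slice 1 day (-0.64, FDR = 0.00854) and higher *in vitro* than in slice 3 weeks (0.74, FDR = 0.00350). The fit within the study label of 8 libraries also leaves out that library, so it rests on the same single slice 3 weeks library, with the spread taken from other groups (-0.63, FDR = 0.00549, and 0.65, FDR = 0.00380).

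*Clic4* separated adult from cultured microglia by the widest margin of the tested channels. It was at 2.63 and 1.93 CPM in adult, 36.9 and 43.7 in slice 1 day, 33.6 and 33.2 in slice 1 week, 26.1 and 36.0 in slice 3 weeks and 44.6 and 61.2 *in vitro*. Every cultured library was above both adult libraries, which held 36 and 15 UMIs, and this was already so after 1 day. The rise over adult was 17.2-fold in slice 1 day (log2 fold change 4.11 ± 0.27, FDR = 1.98e-06), 14.2-fold in slice 1 week (3.83 ± 0.35, FDR = 4.30e-05), 13.3-fold in slice 3 weeks (3.73 ± 0.26, FDR = 6.21e-06) and 22.5-fold *in vitro* (4.49 ± 0.26, FDR = 3.91e-07). These 4 calls were kept under all 21 settings. The slice time points were not called different from each other. *In vitro* was above slice 3 weeks (0.76 ± 0.20, FDR = 0.0137), a call lost without proliferating cells (0.51, FDR = 0.0516), without *in vitro* replicate 2 (0.59, FDR = 0.108) and within the study label of 8 libraries (0.56, FDR = 0.0449).

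Cells were then split within each library, as a description, since cells of a library are not replicates. Proliferating cells, with UMIs of at least 2 of 10 proliferation genes, numbered at least 50 in 6 libraries. Levels in subsets are CPM of the summed UMIs without TMM scaling, with exact 95% Poisson intervals. *Kcnn4* was at 36.0 (32.0 to 40.3) against 27.9 (25.9 to 30.1) CPM in proliferating against other cells of *in vitro* replicate 1, and at 36.8 (33.6 to 40.2) against 21.9 (20.1 to 23.7) in replicate 2. *Clic4* was at 53.0 (48.1 to 58.2) against 37.1 (34.8 to 39.5) CPM in *in vitro* replicate 1 and 80.7 (75.9 to 85.7) against 42.3 (39.9 to 44.9) in replicate 2. In both *in vitro* libraries the intervals of these genes were apart, with proliferating cells higher. In the 4 slice libraries the intervals of *Kcnn4* overlapped, and the ratio of proliferating to other cells was 0.913 and 1.38 in slice 1 day and 0.820 and 1.06 in slice 3 weeks. *Clic4* was lower in proliferating cells of slice 1 day replicate 1, at 18.1 (9.65 to 31.0) against 43.5 (36.3 to 51.7) CPM, and its intervals overlapped in replicate 2 (ratio 0.817) and in both slice 3 weeks libraries (ratios 1.07 and 1.09). *Clic1* was higher in proliferating cells, with intervals apart, in the 4 slice 3 weeks and *in vitro* libraries, by up to 1.41 times, and lower in both slice 1 day libraries. *Kcnk13* was lower in proliferating cells in 6 of 6 libraries, at 0.736 to 0.977 times the other cells, with intervals apart in 1. *Hvcn1* was lower in 5 of 6, with intervals apart in 3: it was at 19.5 (10.7 to 32.8) against 44.5 (37.2 to 52.8) CPM in slice 1 day replicate 1, 117 (103 to 132) against 138 (133 to 144) in slice 3 weeks replicate 2 and 23.7 (21.2 to 26.5) against 32.7 (30.5 to 34.9) in *in vitro* replicate 2. In slice 1 day replicate 2 *Hvcn1* was at 35.0 (29.3 to 41.3) against 30.6 (26.2 to 35.5) CPM. Proliferating cells were the deeper ones in each library, for instance with a median of 17610 UMIs against 13024 in *in vitro* replicate 2. With proliferating cells left out, *Kcnn4* and *Clic4* were still called higher *in vitro* than in adult (2.46, FDR = 7.03e-06, and 4.41, FDR = 1.30e-07).

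**Figure D3:**
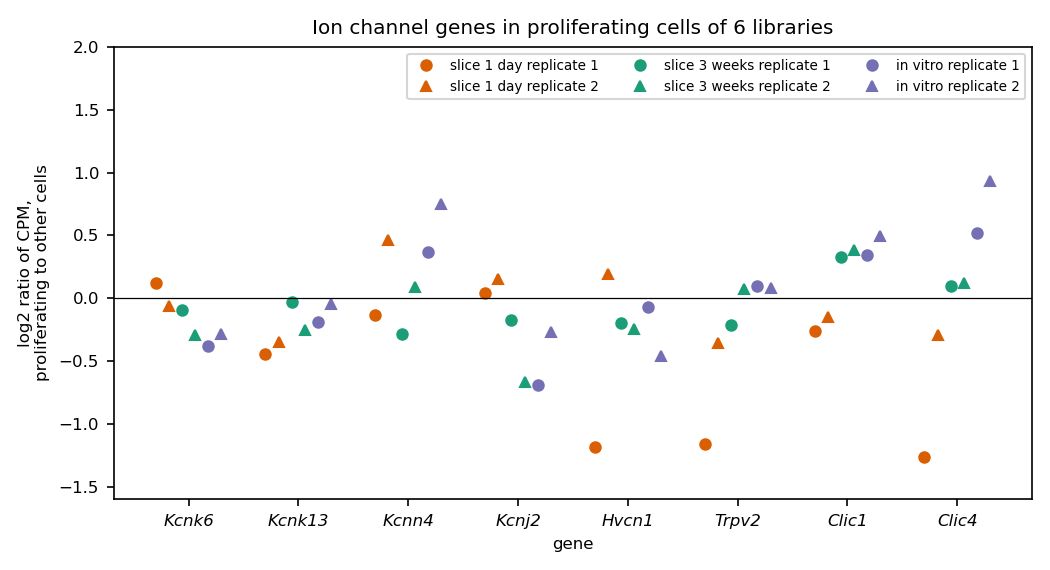
Log2 ratio of the CPM of each ion channel gene in proliferating cells to that in the other cells of the same library, for the 6 libraries with at least 50 proliferating cells (colour, group; circle, replicate 1; triangle, replicate 2). *Clic4* and *Kcnn4* were above 0 in both *in vitro* libraries, at ratios of up to 1.91 and 1.68, and *Kcnk13* was below 0 in all 6.

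Cells with at least 1 UMI of *Gpnmb*, which encodes a lysosomal glycoprotein of activated microglia, numbered at least 50 in 5 libraries. *Clic4* was higher in these cells in 5 of 5 libraries, at 1.16 to 1.51 times the other cells, with intervals apart in 3. In *in vitro* replicate 2, for example, it was at 56.6 (54.1 to 59.1) against 39.9 (33.7 to 46.9) CPM. *Kcnk6* was lower in 5 of 5 libraries, at 0.436 to 0.790 times, with intervals apart in 1, and *Clic1* in 5 of 5, at 0.895 to 0.975 times, with intervals apart in 4. *Hvcn1* was higher in 4 of 5, at 0.876 to 1.61 times, with intervals apart in 1 library as higher and in 1 as lower. *Kcnk13* was at 0.813 to 1.06 times, with intervals apart in 2, both lower. *Kcnn4* was at 0.816 to 1.12 times, with intervals apart in 1, as lower. The *Gpnmb*-positive cells had the higher median UMIs in each of these libraries, and depth raises the chance of a *Gpnmb* UMI.

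The channels were also read in neutrophil-rich cells, those with over 2% of their UMIs from the neutrophil list, a limit set after the data had been seen. They numbered 68 of 518 cells in slice 1 day replicate 1 and 110 of 1014 in replicate 2. *Kcnk13* was at 0 (up to 21.5) against 67.9 (59.5 to 77.1) CPM in neutrophil-rich against other cells of replicate 1 and at 9.40 (3.78 to 19.4) against 72.7 (67.1 to 78.5) in replicate 2. *Hvcn1* was at 5.83 (0.148 to 32.5, on 1 UMI) against 41.3 (34.8 to 48.6) and 13.4 (6.44 to 24.7) against 34.0 (30.3 to 38.1) CPM, and *Clic4* at 0 against 40.4 and 12.1 against 47.3. *Kcnn4* was also lower, at 0 against 15.8 and 2.68 against 12.4, as was *Trpv2*, at 35.0 against 45.0 and 12.1 against 36.4. *Clic1* was at 1165 (1009 to 1338) against 925 (893 to 957) in replicate 1 and 834 against 903 in replicate 2. *Kcnj2* was at 29.1 (9.46 to 68.0) against 4.30 (2.41 to 7.09) CPM in replicate 1, on 5 UMIs, and at 1.34 against 3.30 in replicate 2. For *Kcnk13*, *Hvcn1* and *Clic4* the intervals were apart in both libraries, with neutrophil-rich cells lower. These cells were also shallower, with a median of 2224 against 6986 UMIs in replicate 1 and 4925 against 8868 in replicate 2. Leaving them out changed no call of a channel in the 6 main comparisons.

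Other channel genes were counted from 5 lists, to be read against the shares of all tested genes called higher and lower than adult: 22.4% and 28.5% *in vitro*, 24.9% and 25.3% in slice 1 day, 15.0% and 13.6% in slice 1 week and 17.9% and 17.5% in slice 3 weeks. Of 62 other potassium channels, 47 were detected and 8 passed the filter, which a gene could do through its level in adult alone, so that a lower level in culture was partly built in and the counts are no more than a description. Against adult there were 0 higher and 7 lower *in vitro*, 0 higher and 6 lower in slice 1 day, 0 higher and 3 lower in slice 1 week and 0 higher and 5 lower in slice 3 weeks. The 5 astrocyte genes, of which 3 to 5 were detected per library, moved with this list, at 148 to 152 CPM in adult and 3.92 to 33.8 in the cultures, and their part was not tested. *Kcnj10*, an astrocyte channel gene on the list, was called in none of the 4 cultures. *Kcnk12*, a close relative of *Kcnk13*, was at 63.4 and 60.0 CPM in adult, 5.24 and 1.24 in slice 1 day, 2.96 and 0 in slice 1 week, 5.17 and 1.68 in slice 3 weeks and 0.193 and 0 *in vitro*. Both adult libraries were far above every cultured library, with a log2 fold change of -4.36 ± 0.59, FDR = 0.000289 in slice 3 weeks. *Kcnd1* (Kv4.1) and *Tmem175*, a lysosomal potassium channel gene, chosen after their values were seen, were likewise called lower in all 4 cultures: *Kcnd1* was at 20.6 and 16.5 CPM in adult and at most 3.95 in culture, and *Tmem175* at 43.7 and 49.0 and at most 25.5.

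Of 17 auxiliary potassium channel subunits 4 were tested, with 1 higher and 1 lower *in vitro*, 1 higher and 1 lower in slice 1 day, 1 higher and 0 lower in slice 1 week and 1 higher and 1 lower in slice 3 weeks. *Kcnab2*, the beta subunit Kvβ2 of Kv1 channels, was at 0.439 and 0.386 CPM in adult, 14.4 and 17.4 in slice 1 day, 12.8 and 5.11 in slice 1 week, 3.10 and 5.07 in slice 3 weeks and 25.8 and 29.5 *in vitro*. Every cultured library was above adult, with log2 fold changes of 6.01 ± 0.37, FDR = 5.71e-07 *in vitro* and 3.32 ± 0.42, FDR = 0.000184 in slice 3 weeks. Of 19 tested chloride and anion channels there were 6 higher and 9 lower *in vitro*, 2 higher and 8 lower in slice 1 day, 2 higher and 4 lower in slice 1 week and 4 higher and 4 lower in slice 3 weeks. Their median log2 fold change was -0.84 *in vitro*, -0.64 in slice 1 day, -0.20 in slice 1 week and -0.31 in slice 3 weeks, against -0.11, -0.061, -0.085 and -0.032 over all tested genes. *Ttyh2*, of the tweety family, was at 3.51 and 3.09 CPM in adult, 12.6 and 13.8 in slice 1 day, 28.7 and 28.9 in slice 3 weeks (3.11 ± 0.23, FDR = 8.74e-06) and 25.6 and 34.5 *in vitro* (3.17 ± 0.23, FDR = 1.87e-06).

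Of 28 tested calcium and other cation channels, there were 4 higher and 10 lower *in vitro*, 6 higher and 12 lower in slice 1 day, 7 higher and 8 lower in slice 1 week and 6 higher and 10 lower in slice 3 weeks. Their median log2 fold change was -0.025 *in vitro*, with 3 genes at 0 in adult or *in vitro* set at a bound of 3 counts over the group, -0.46 in slice 1 day, -0.052 in slice 1 week and 0.082 in slice 3 weeks. *Trpm4*, a cation channel opened by calcium, was at 22.8 and 21.9 CPM in adult, 4.78 and 6.51 in slice 3 weeks (-1.95 ± 0.23, FDR = 0.000132) and 2.63 and 2.38 *in vitro* (-3.15 ± 0.24, FDR = 2.22e-06). *Tmem63a*, a mechanically gated channel, was at 103 and 97.2 CPM in adult and 14.0 and 11.9 *in vitro* (-2.96 ± 0.18, FDR = 6.03e-07). *Itpr2*, a receptor that releases calcium from the endoplasmic reticulum, was at 90.1 and 93.4 in adult and 13.6 and 17.6 in slice 1 day (-2.53 ± 0.28, FDR = 4.70e-05). *Tpcn2*, a channel of lysosomes, moved the other way, from 7.03 and 8.11 to 27.2 and 29.6 (1.92 ± 0.29, FDR = 0.000286). Of 20 tested pumps and exchangers, there were 5 higher and 5 lower *in vitro*, 5 higher and 7 lower in slice 1 day, 5 higher and 3 lower in slice 1 week and 6 higher and 3 lower in slice 3 weeks, with a median log2 fold change of -0.21 *in vitro*, -0.27 in slice 1 day, 0.088 in slice 1 week and 0.18 in slice 3 weeks. *Slc9a9*, an endosomal exchanger of sodium and protons, was lower than adult in slice 1 day (13.9 and 8.75 against 94.4 and 95.4 CPM; -3.13 ± 0.21, FDR = 2.09e-06) and in slice 3 weeks (26.4 and 28.4; -1.79 ± 0.18, FDR = 5.73e-05), while *in vitro* it was at 96.7 and 79.4 CPM.

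**Figure D4:**
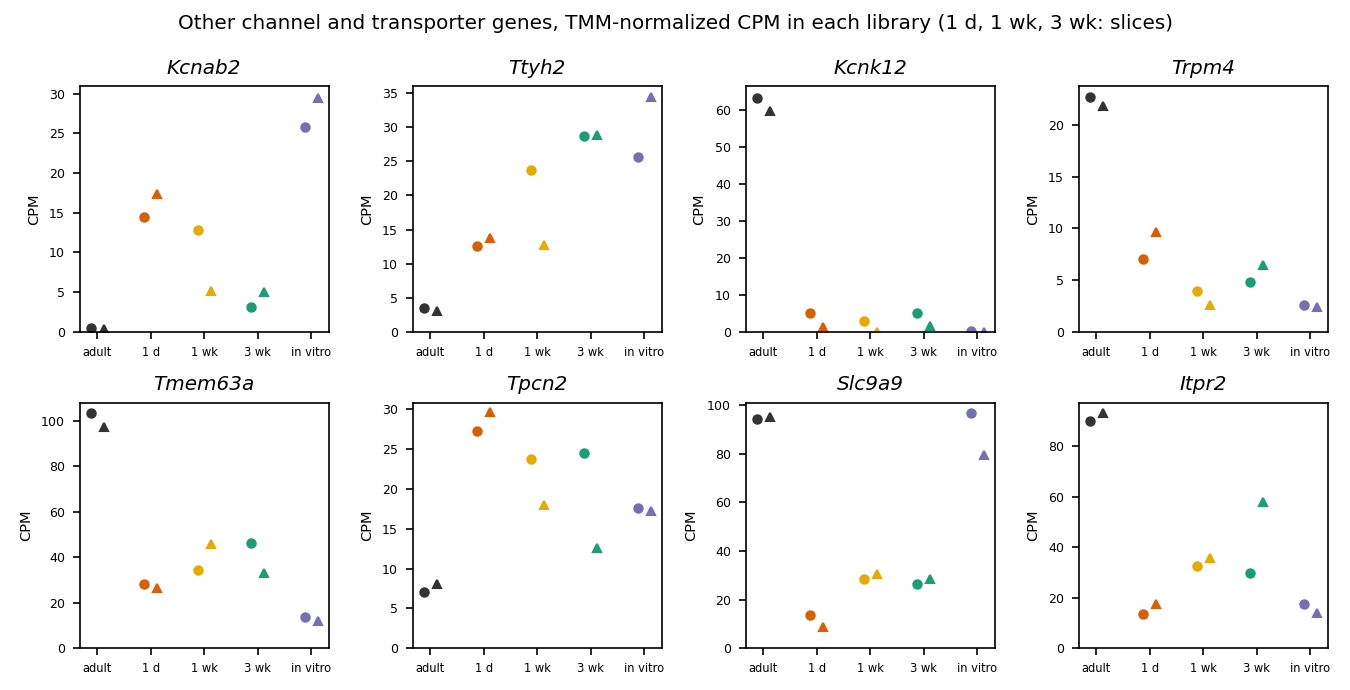
Levels in each library, in CPM after TMM scaling, of 8 other channel and transporter genes among those that changed most against adult *in vitro*, in slice 1 day or in slice 3 weeks (circle, replicate 1; triangle, replicate 2). *Kcnk12* was at 60.0 CPM or more in adult and 5.24 or less in culture, and *Kcnab2* at 0.439 or less in adult.

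Genes whose levels followed those of a channel most closely over the 10 libraries were found by the Pearson correlation of log2(CPM + 1), among genes whose mean log2 CPM reached 5. Libraries of a group are alike, so r mostly follows the 5 groups and is given as a description. *Clic4* was most like *2010107E04Rik* (r = 0.99) and *Fabp5* (r = 0.99), *Hvcn1* most like *Edem2* (r = 0.97) and *Irak2* (r = 0.97), and *Kcnn4* most like *Glo1* (r = 0.98) and *Nop10* (r = 0.96). *Kcnk13* was closest to *Dnm2* (r = 0.98) and *Akap8l* (r = 0.98), and *Kcnk6* to *Phf14* (r = 0.98) and *Ldhb* (r = 0.97). For *Trpv2* these genes were *Trim47* (r = 0.97) and *Clec4a3* (r = 0.95), and for *Clic1* *Ppp4c* (r = 0.95) and *Brms1* (r = 0.95). *Kcnj2* had the lowest values, with *Itgam* (r = 0.94) and *Bsg* (r = 0.92), the former encoding CD11b, which the sort used.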

How the data were processed

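Mouse microglia were profiled by single cell RNA sequencing in 10 libraries. The deposited tables hold UMI counts per gene and barcode, which the authors made with Cell Ranger 1.3.0 and the mm10 genome, per the submitters' processing notes. The annotation is not given in the sources used here. Barcodes with at most 5% mitochondrial UMIs, at least 400 genes and at most 30000 UMIs were kept, and no doublet caller was run. Counts were summed per library, with 0 for a gene missing from a table, and tested with edgeR 4.0.16 in R 4.3.3: TMM factors, filterByExpr with a minimum count of 10, the quasi-likelihood test in 1 fit of all 10 libraries and Benjamini-Hochberg adjustment. The biological coefficient of variation was 18.28%. With 2 libraries a group, an exact permutation test could not go below a two-sided p of 0.33 and was not used. Floors of 3 counts lay at 0.0841 to 7.67 CPM.

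Alternatives were DESeq2 1.42.0, other scalings and filters, subsets of cells, the study label, the replicate number and leaving out each library. Other genes named were the 3 largest called rises and 3 largest called falls of the channel lists *in vitro*, in slice 1 day and in slice 3 weeks against adult, at a mean log2 CPM of 3 or more, and the 2 genes most like each channel. *Kcnd1* and *Tmem175* were named outside this rule, after their values were seen. A gene that this rule selects is not reported here. The channels and lists were chosen with earlier results of these data known. Gene positions are those of the GRCm38 (mm10) annotation, and promoters are from RefSeq (GRCm38.p6).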

Additional observations from a re-analysis of the deposited data

Results flagged for a closer look

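*Kcnj2* is given here because its change against adult differed between the culture systems. It was higher than adult in slice 3 weeks (10.1 and 10.0 against 4.83 and 3.86 CPM) and lower *in vitro* (1.76 and 1.54 CPM), and the difference between both changes was -2.60 on the log2 scale, called by edgeR (FDR = 0.000110). These calls were conditions of the flag and so add no further support. The rise was lost without adult replicate 2, and the fall without adult replicate 1 or *in vitro* replicate 2. Slice 3 weeks, adult and *in vitro* held 293, 96 and 110 UMIs of *Kcnj2* and did not overlap. Groups of 2 libraries were not tested for single outlying samples.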

How the results depend on the processing

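Of 29 calls of single channels in the 6 main comparisons, 18 were kept under all 21 alternatives and 11 were lost under some. The number of called channels went from 3 to 5 in slice 1 week against adult with library size alone and with no filter on low counts, and from 4 to 1 in slice 3 weeks against slice 1 day without cells of other types, which drops 2 libraries because each of their cells held UMIs of at least 2 neutrophil genes. Over all tested genes the share called went from 28.6% to 33.12% and 23.2% in the former, and from 26.7% to 1.82% in the latter. With 1 library left out, the number of called channels also moved. In slice 3 weeks against adult it fell most without slice 3 weeks replicate 2, adult replicate 2, *in vitro* replicate 1 or *in vitro* replicate 2. In slice 3 weeks against slice 1 day it fell most without slice 1 day replicate 2. The share of all tested genes called was lower in each of these fits too. Each leaves 1 library in a group, so the counts are not given. No called change of these comparisons was reversed. Of log2 differences that were not called, *Clic1* turned to -0.11 *in vitro* against adult with library size alone. In slice 1 week against adult *Clic1* turned to 0.054 with DESeq2 size factors, 0.050 with DESeq2, 0.012 with all barcodes, 0.081 without cells of other types, 0.023 without proliferating cells and 0.096 with the study label as covariate. With 1 library left out *Clic1* ran from -0.084 to 0.073 in slice 1 week and -0.41 to 0.062 in slice 3 weeks. *Kcnj2* in slice 1 day turned to 0.85 without cells of other types and ran from -0.50 to 0.32 with 1 library left out. In slice 1 week *Kcnj2* turned to -0.065 with library size alone and -0.68 without cells of other types and ran from -0.75 to 0.39, and *Kcnn4* turned to 0.070 without cells of other types and ran from -0.84 to 0.011. The causes were not tested. With library size alone the median log2 fold change of all genes moved from -0.11 to -0.42 for *in vitro* against adult, and for slice 3 weeks from -0.032 to -0.23. The share of higher genes among those called moved from 44.00% to 29.95% *in vitro*, from 52.49% to 37.58% in slice 1 week (63.67% with DESeq2) and from 50.64% to 35.81% in slice 3 weeks. The replicate block changed no call of a channel, for example giving -2.61 for *Kcnj2* *in vitro* against slice 3 weeks, and the numbers did not pair the libraries (correlations of deviations from -0.135 to 0.123). The restriction to 8 libraries of 1 study label and the limit on neutrophil UMIs were added after seeing the data. Depth limits *Kcna3* and slice 1 week most.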
